A study of Caenorhabditis elegans with 2 samples.

Results

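The cytosolic large ribosomal subunit of Caenorhabditis elegans is encoded in part by 41 protein-coding genes with the names rpl or rla followed by a number, or by a number and a letter, out of 19973 protein-coding genes on the nuclear chromosomes of the Ensembl WBcel235 annotation. The rule for them uses the name alone, but this group of genes was taken up with earlier results of these data known, so its share is a description. Of these 41 genes, 12 carried a region of the Y67H2A.10 fusion protein in their promoter window, a share of 29.3% (95% Wilson interval 17.6 to 44.5), while 2.31% of all protein-coding genes did. The 12 genes were rpl-1, rpl-3, rpl-6, rpl-7, rpl-7A, rpl-12, rpl-14, rpl-15, rpl-20, rpl-35, rpl-36 and rpl-39.

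The fusion protein was mapped by chromatin immunoprecipitation with sequencing (ChIP-seq), in which DNA bound by a protein is recovered with an antibody and sequenced. All animals were of strain RW12295, in which a CRISPR insertion (allele st12295) joins TY1, EGFP and 3xFLAG tags to Y67H2A.10 on chromosome IV. They were whole young adults at 63 hours, grown from larvae synchronised by bleaching and starvation at the L1 stage, and the antibody recognised GFP. The 2 biological replicates form 1 group of 1 strain, so no condition could be compared and no test over samples was possible. Whole animals mix all tissues, so a region may come from some of the cells only. Untagged animals were not analysed here, and the share of these regions that an untagged strain would give was not measured.

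The large subunit holds the site where peptide bonds form and the tunnel through which the new protein leaves. Its proteins sit on a core of ribosomal RNA and are needed in near equal amounts, and their genes are among the most highly transcribed in growing cells. Many C. elegans messages are trans-spliced: the first part of the transcript is removed at a splice acceptor and replaced by a spliced leader. For such genes the annotated 5′ end often lies at the acceptor, downstream of where transcription begins.

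The promoter window of a gene took in 500 bp before and 100 bp after each of its annotated 5′ ends, and a gene was counted when a peak summit lay in it. Kept regions are those of the conservative list, whose ranks recurred between the replicates at an irreproducible discovery rate (IDR) of 0.01 or less. That list held 666 regions after merging, 354 of them in a promoter window. All 22544 candidate peaks of that comparison, kept or not, are in the ranked list. Signal is the authors' own value for each peak, and its scale is not given. Read counts are not part of these lists, so depth is unknown and intervals cover only the number of genes or regions counted.

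The summit sequences of the 4 large-subunit regions with the highest signal are shown because they share a word, and those of rpl-7A and rpl-39 because they share another. Each line is the summit with 50 bp to either side, 5′ to 3′ on the strand of the gene, read from the RefSeq sequence of WBcel235 (ce11). Capitals mark matches, on either strand, to GGTCTC, to the word ACCGTA, to the word GCGTGTT and to the word GAATACTCA. The 4 words were chosen after the summit sequences had been seen.
rpl-3 (III:3867542-3867642, plus strand): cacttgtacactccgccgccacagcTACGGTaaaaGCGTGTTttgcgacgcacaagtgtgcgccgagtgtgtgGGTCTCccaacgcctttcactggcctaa
rpl-15 (IV:654877-654977, minus strand): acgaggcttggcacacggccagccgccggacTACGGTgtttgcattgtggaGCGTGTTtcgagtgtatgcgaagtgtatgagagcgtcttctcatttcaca
rpl-35 (III:7854649-7854749, plus strand): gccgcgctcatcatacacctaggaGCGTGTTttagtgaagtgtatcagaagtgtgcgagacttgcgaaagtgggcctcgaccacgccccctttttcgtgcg
rpl-20 (IV:4750015-4750115, minus strand): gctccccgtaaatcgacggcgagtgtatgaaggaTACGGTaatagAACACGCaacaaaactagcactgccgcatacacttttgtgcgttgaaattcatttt
rpl-7A (IV:4390612-4390712, minus strand): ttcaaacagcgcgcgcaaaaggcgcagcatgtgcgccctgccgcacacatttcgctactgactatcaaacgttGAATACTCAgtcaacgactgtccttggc
rpl-39 (V:7776275-7776375, minus strand): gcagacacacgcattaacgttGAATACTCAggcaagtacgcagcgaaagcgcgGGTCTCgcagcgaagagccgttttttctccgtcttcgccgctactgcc

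The word GCGTGTT, or its reverse complement AACACGC in rpl-20, lay within 50 bp of the summit in 4 of the 12 regions. These 4 were the regions with the highest signal among the large-subunit genes. The same word was found at 31 of all 666 kept summits (4.65%), at 6 of the 25 highest and at 0 of the 12 small-subunit regions. Of those 6, 4 were the large-subunit regions just named, so the comparison is not independent of them. The cut at 25 is also the rank of rpl-20, the lowest of these 4, so it just takes in all of them. Among the 67 highest regions, which include the same 4, the word lay at 8 (11.9%), and among the other 599 at 23 (3.84%). At the position 302 bp upstream of all protein-coding genes, 0.666% of windows of the same length held it. Over whole 601 bp promoter windows, 7 of 41 large-subunit genes (17.1%) held it against 4.34% of all genes, and 3 of those 7 had no kept region.

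The word GAATACTCA occurred at the summits of rpl-7A and rpl-39. It was found at 6 of all 666 kept summits (0.901%), and 4 of these 6 lay in the promoter window of a ribosomal protein gene. Besides the regions of rpl-7A and rpl-39, which lie beside set-21 and rps-30, these were the regions of rps-20 and rps-0, shared with ekl-4 and rbg-3. These 4 ranked 89 (rpl-7A), 102 (rps-20), 308 (rps-0) and 342 (rpl-39) by signal. The remaining regions with the word ranked higher, at 9 (signal 445) and 17 (signal 373), and lay in the window of no protein-coding gene. In whole promoter windows GAATACTCA was held by 5 of 41 large-subunit genes (12.2%), 5 of 31 small-subunit genes (16.1%) and 0.521% of all protein-coding genes. A match describes the letters only and is not a mapped site.

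GGTCTC lay at the summits of rpl-3, rpl-6, rpl-7, rpl-14, rpl-36 and rpl-39, and ACCGTA at those of rpl-3, rpl-6, rpl-7, rpl-14, rpl-15 and rpl-20. All kept regions held them in 12.2% and 11.3% of cases. At least 1 of the 4 words lay at 10 of the 12 summits, and at 7 there were 2 or more. Because the words were chosen from these summits, high counts are partly built in. The same counts over all kept regions are not given here. The summits of rpl-1 and rpl-12 held none. In whole promoter windows GGTCTC was held by 6 of the 12 genes with a kept region and by 16 of the 29 without, in all 53.7%. Of small-subunit genes 45.2% held it, and of all protein-coding genes 15%. ACCGTA was held by 19 of 41 large-subunit windows (46.3%), 35.5% of small-subunit windows and 16% of those of all genes.

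ACGCGC, a word known from earlier results at these regions as a whole, was found at 17.3% of all kept summits and at 0 of the 12 large-subunit summits, where the upper 95% Wilson bound is 24.2%. Its share in whole large-subunit promoters, 9.76%, was close to the 10.2% of all genes. GTCTCGCA, which shares GTCTC with the word GGTCTC, lay at the summits of rpl-35 and rpl-39 and at 3.90% of all kept summits. CGCG lay at 5 of the 12 summits (41.7%) and at 53.5% of all. In whole promoters the order was the other way: 29 of 41 large-subunit genes (70.7%) held it, and 45.0% of all genes. Mean GC content within 50 bp of the summit was 51.9% ± 8.15 (SD, n = 12 regions) for large-subunit genes and 49.0% ± 8.04 (SD, n = 666) for all kept regions, and the 12 are among the 666.

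In the catalytic core, 1 of 4 genes carried a kept region and all 4 had a ranked peak. Such a peak was found for 73.2% of all 41 large-subunit genes and 19.8% of all protein-coding genes. The region of rpl-3, whose protein reaches toward the peptidyl transferase centre, ranked 3 of 666 by signal (III:3867472-3867670, signal 535, between genes). Its signal was 263 in replicate 1 and 270 in replicate 2, ranking 8 and 5 in the replicates' own ranked lists. It lay 262 bp upstream of the annotated 5′ end and in the window of no other protein-coding gene. The other catalytic-core genes rpl-2, rpl-4 and rpl-10 had ranked peaks and no kept region.

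Among the 6 genes assigned to the exit tunnel, rpl-35 and rpl-39 carried kept regions, and all 6 had ranked peaks. The region of rpl-35 (III:7854608-7854776, rank 19, signal 341) lay between genes 435 bp upstream, with 173 in replicate 1 and 167 in replicate 2. The ranks of rpl-39 in the replicates stood further apart than those of any other kept large-subunit gene. Its region (V:7776177-7776472, rank 342, signal 104) had 36.6 in replicate 1, at rank 1463, and 68.2 in replicate 2, at rank 219.

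At the stalks, the moving arms that handle transfer RNA and translation factors, rpl-1 and rpl-12 carried regions and the acidic stalk genes rla-0, rla-1 and rla-2 did not. The region of rpl-12, which encodes the protein at the base of the factor-binding stalk, lay 18 bp upstream (IV:13240623-13240714, rank 62, signal 215). Both replicates gave 109. The region of rpl-1, the gene of the opposite stalk, ranked 318 (I:2876476-2876771, signal 107) and lay 316 bp upstream. Replicate 1 gave 48.3 and replicate 2 gave 67.6. Of the acidic stalk genes, rla-0 had a ranked peak, while rla-1 and rla-2 had none.

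The remaining 7 kept genes were assigned to none of these places. The region of rpl-15 (IV:654830-655030, rank 8, signal 462) lay 351 bp upstream, with 257 in replicate 1 and 199 in replicate 2. The region of rpl-20 (IV:4750021-4750158, rank 25, signal 310) lay 287 bp upstream, with 180 and 127 in the same order. These are between-gene regions on chromosome IV. They ranked 10 and 15 (rpl-15) and 22 and 53 (rpl-20) in the ranked lists of replicates 1 and 2.

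A middle pair was formed by rpl-7 and rpl-7A, which despite their names encode unrelated proteins. The region of rpl-7 (I:110559-110854, rank 83, signal 193) had 91.8 in replicate 1 and 100 in replicate 2, and its summit lay 331 bp upstream in exons of the non-coding genes F53G12.15 and F53G12.16. The region of rpl-7A (IV:4390514-4390809, rank 89, signal 189) had 93.7 in both, 72 bp upstream. In the replicates' own ranked lists they stood at ranks 109 and 86 for rpl-7 and at 104 and 102 for rpl-7A.

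The last 3 of these regions were lower. That of rpl-6 (III:7207923-7208218, rank 290, signal 111) had 57.6 in replicate 1 and 58.7 in replicate 2, 376 bp upstream. The region of rpl-14 (I:9688769-9689064, rank 482, signal 91.8) had 51.5 and 43.5, 280 bp upstream. For rpl-36 (III:7179675-7179970, rank 547, signal 86.5) the values were 40.1 and 46.5, 428 bp upstream.

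**Figure D1:**
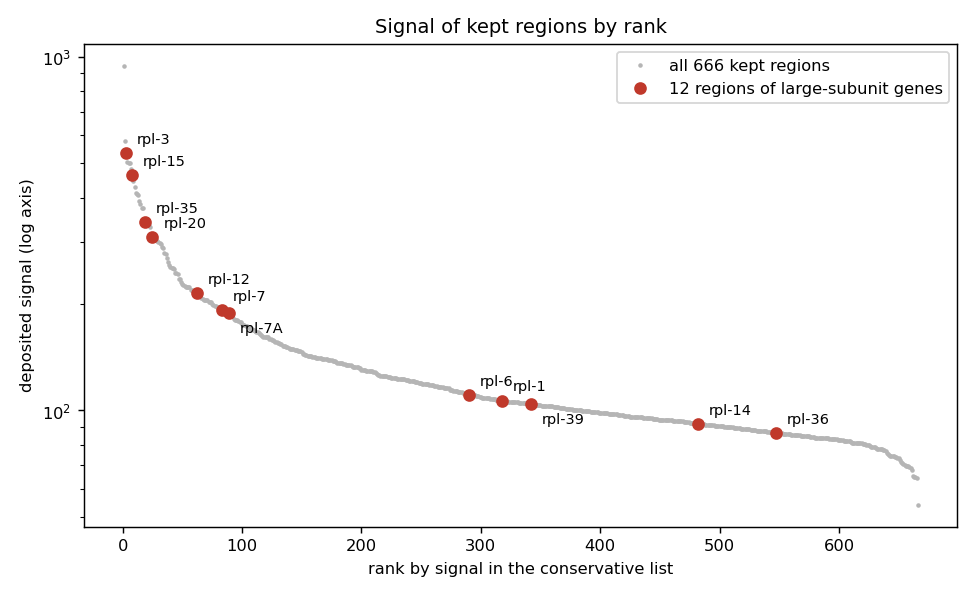
Deposited signal (log axis) of the 666 kept regions against their rank, with the 12 regions of large-subunit genes marked. The marked regions run from rpl-3 at rank 3 to rpl-36 at rank 547.

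Across the 12 regions the median signal was 191, while that of all kept regions was 105. Of the 12, 9 lay above the median of the list and 5 among its highest 10%. The median percentile among kept regions was 87.2 for the large subunit, with a range of 18.0 to 99.7, and 83.7 for the 12 regions of small-subunit genes, with a range of 18.0 to 96.8. The 2 classes share 2 regions, those of rpl-36 with rps-14 and of rpl-39 with rps-30, and the lowest percentile of both is that of the former.

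By each replicate's own thresholded list, 8 large-subunit genes carried a region in replicate 1 (19.5%, against 1.22% of all genes) and 11 in replicate 2 (26.8%, against 1.51%). The 8 were rpl-3, rpl-6, rpl-7, rpl-7A, rpl-12, rpl-15, rpl-20 and rpl-35, and each was also in the list of replicate 2. The genes rpl-1, rpl-36 and rpl-39 were in that of replicate 2 only, and rpl-14 was in neither. The list of the pooled reads held all 12 (29.3%, against 2.30% of all genes).

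Signals of the replicates come from separate lists whose scale and depth are unknown, so they are set side by side and only ranks are compared. Ranks were better in replicate 1 for 5 of the 12 genes and in replicate 2 for 7. Summits of the replicates lay 2 to 72 bp apart, with a median of 7.5 bp. They were within 15 bp of each other for 9 of the 12 genes. The gaps were 27 bp for rpl-12, 56 bp for rpl-39 and 72 bp for rpl-36. Because the conservative list keeps what recurs between the replicates, this nearness is partly built into the choice.

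**Figure D2:**
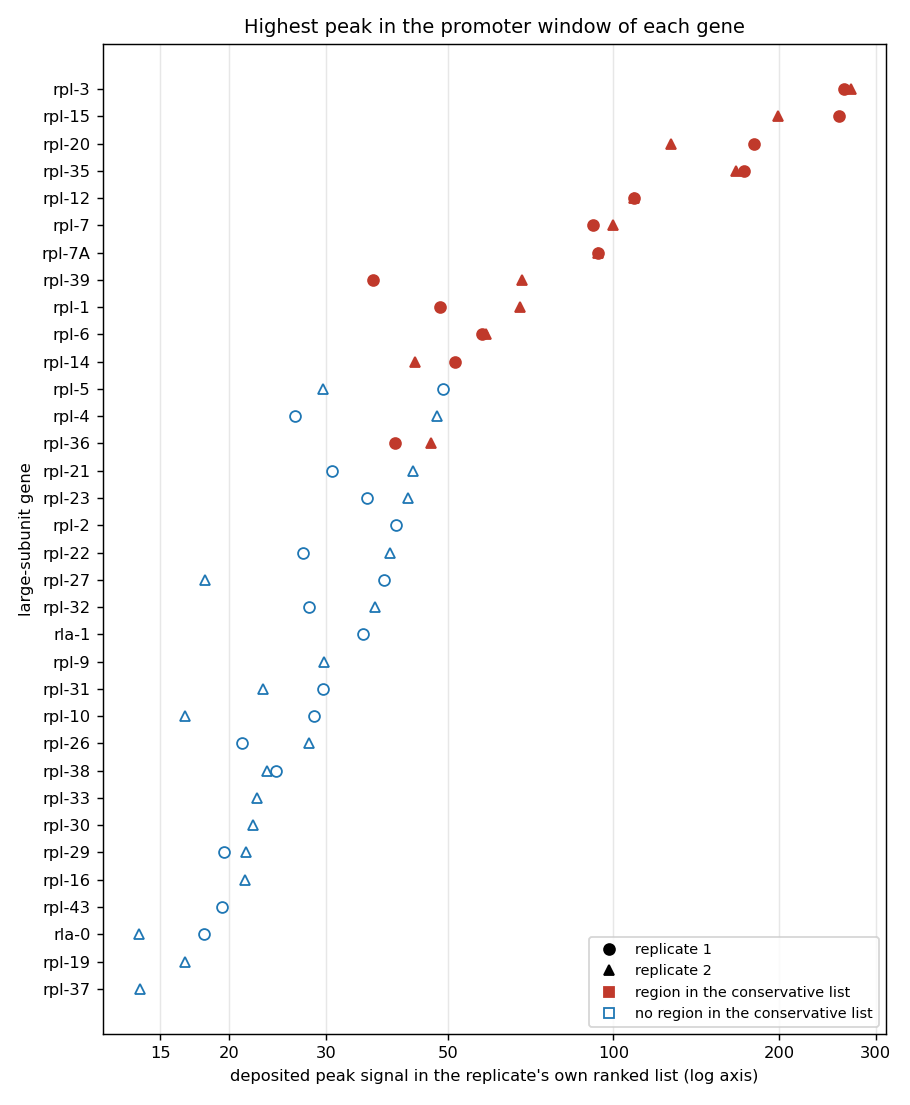
Highest peak in the promoter window of each large-subunit gene in the ranked list of replicate 1 (circles) and replicate 2 (triangles), with genes that carry a kept region filled in red and signal on a log axis. The 4 genes with the highest values, rpl-3, rpl-15, rpl-20 and rpl-35, stand at 127 or above in both replicates, and genes with 1 marker had no ranked peak in the other replicate.

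Any candidate peak, kept or not, was found in the window of 30 of 41 large-subunit genes (73.2%, 95% Wilson interval 58.1 to 84.3), against 19.8% of all protein-coding genes. A ranked peak was present in both replicates for 25 genes, 13 of which had no kept region. The share of all protein-coding genes with a ranked peak in both replicates is not given here, so nothing is read from this count. The 18 genes with a ranked peak but no kept region had signals of 14 to 80.3 with a median of 52.2, while the median of all ranked records was 37.4, and 13 of the 18 stood at or above it. For each gene the highest peak in its window was taken, whereas the 37.4 covers every record, so these are not like measures. The IDR of the 18 genes was 0.0128 or more.

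The 5 highest of them reached 61.5 to 80.3. The gene rpl-4 is counted here in the catalytic core, though its protein also lines the exit tunnel near the catalytic centre. Its peak had a signal of 80.3 and an IDR of 0.230, with 26.4 in replicate 1 and 47.7 in replicate 2. For rpl-5, which carries the smallest of the ribosomal RNAs of the large subunit into it, the signal was 79.3 and the IDR 0.0271, with 48.9 in replicate 1 and 29.7 in replicate 2. In the replicates' own lists rpl-4 ranked 6615 and 535, and rpl-5 ranked 513 and 3111.

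The peak of rpl-23 had a signal of 74.5 and an IDR of 0.0128, with replicate values of 35.7 and 42.3. That of rpl-21 had 73.8 and an IDR of 0.0432, with 30.8 and 43.2. At rpl-2, a catalytic-core gene, the signal was 61.5 and the IDR 0.747, with 40.2 in replicate 1 and no ranked peak in replicate 2. On the other side of the threshold, the kept genes nearest to it were rpl-14 at 0.00151, rpl-36 at 0.00438 and rpl-39 at 0.00451. The lowest signal of a kept region was 86.5, at rpl-36, and the highest of a gene without one was 80.3, at rpl-4.

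No ranked peak lay in the windows of rla-1, rla-2, rpl-9, rpl-13, rpl-16, rpl-28, rpl-33, rpl-34, rpl-37, rpl-42 and rpl-43. Of these 11, rla-2, rpl-13, rpl-28, rpl-34 and rpl-42 also had none in the ranked list of either replicate. A missing peak says that none was called, not that the fusion protein is absent there.

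By role, no spread over the subunit can be read, because 21 genes were not assigned to a place and 4 were listed as other. Of the kept genes, 6 were among the former and 1 among the latter. The placed kept genes were 1 of 4 in the catalytic core, 2 of 6 in the exit tunnel and 1 in each stalk. Proteins with a counterpart in bacteria and archaea numbered 15, of which 5 had a kept region and 13 a ranked peak. Among the other 26, 7 had a kept region and 17 a ranked peak. By chromosome, 3 of 12 large-subunit genes on chromosome I had a kept region, 0 of 8 on II, 4 of 9 on III, 4 of 8 on IV and 1 of 4 on V, and none of the genes lies on X. The shares of all protein-coding genes by chromosome are not given here, so no difference between chromosomes is read from these small counts.

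A small nucleolar RNA gene, which guides the chemical modification of ribosomal RNA, lay inside 7 large-subunit genes on the same strand. Of these 7, the 4 genes rpl-6, rpl-7, rpl-7A and rpl-15 had a kept region, and 8 of the other 34 did. Over all protein-coding genes, 159 held such a gene and 21 of them (13.2%) had a kept region. These counts are given as a description.

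Summits of the large-subunit regions lay a median of 302 bp upstream of the nearest annotated 5′ end of the gene, with quartiles of 258 and 357 bp. For small-subunit genes the median was 283 bp, and for all 462 genes with a region 206 bp. The 5′ ends of rpl-3, rpl-15 and rpl-12 are shown with the sequence before them. Each line gives 20 bp before the annotated 5′ end and its first 6 bp, on the strand of the gene, from the same RefSeq sequence. Capitals mark CAG directly before the end, the letters of a splice acceptor, for rpl-3 and rpl-15, and rpl-12 has none.
rpl-3 (III:3867834-3867859, plus strand): gtaaaattaatatttttCAGggtaca
rpl-15 (IV:654571-654596, minus strand): tctaaccttttttctttCAGaaaaca
rpl-12 (IV:13240646-13240671, minus strand): agcgacgcaacaaccattgtgatacg

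Of the 41 large-subunit genes, 33 (80.5%) had AG directly before the 5′ end farthest upstream, as did 28 of 31 small-subunit genes (90.3%) and 27.6% of all protein-coding genes. The longer CAG stood there in 32 large-subunit genes, in 25 small-subunit genes and in 22.1% of all. Among the 12 kept genes, the 10 with the acceptor had their summit 246 to 435 bp upstream, with a median of 324 bp. The 2 without it, rpl-12 and rpl-7A, had theirs at 18 and 72 bp. The ranges did not overlap, but this split rests on 2 genes. Of the other 6 large-subunit genes without the acceptor, 4 had a ranked peak, and those of rpl-26, rpl-32 and rpl-38 lay 211, 404 and 376 bp upstream, the last 2 within the range of the kept genes with it. The gene rpl-19 has 2 annotated 5′ ends. Its peak lay 167 bp downstream of the nearer, past the window of that end, and was counted through the other. Among small-subunit genes, the 1 kept gene without the acceptor, rps-24, had its summit 336 bp upstream, farther than the median of 280 bp of the 11 with it.

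Over all protein-coding genes with a region, the median was 253 bp for the 218 with AG before the end and 138 bp for the 244 without. The share of large-subunit genes with a kept region was 30.3% with the acceptor and 25% without, and over all genes 3.96% and 1.69%. The acceptor was looked at after the positions had been seen. Where transcription begins was not measured here.

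**Figure D3:**
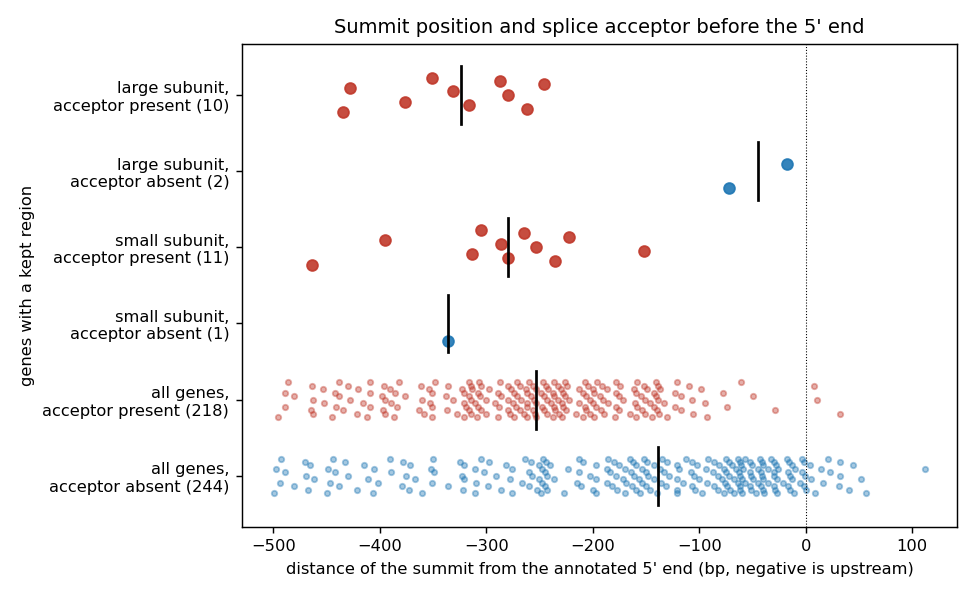
Distance of the summit from the nearest annotated 5′ end in bp for genes with a kept region, split by whether AG stands directly before the 5′ end, with black lines at the medians. The 10 large-subunit genes with the acceptor lie 246 to 435 bp upstream and the 2 without lie at 18 and 72 bp, while the 1 small-subunit gene without it lies at 336 bp.

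The 18 large-subunit genes with a ranked peak below the threshold had a median position of 304 bp upstream, and 13 of them lay 200 to 460 bp upstream. For the 3491 protein-coding genes in the same state the median was 173 bp, and 39.4% lay in that range. The range was not set beforehand. It encloses the 246 to 435 bp of the kept large-subunit genes with the acceptor, so these shares are a description. No kept summit lay in the body of a large-subunit gene beyond the promoter window.

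The same region can belong to a second gene. For 7 of the 12 large-subunit genes the summit also lay in the window of a divergent protein-coding gene, while 114 of 354 kept promoter regions (32.2%) lay in windows of 2 or more genes. The neighbours were K11H12.8 for rpl-15, Y17G9B.5 for rpl-20, Y71F9AL.9 for rpl-1, lin-54, a subunit of the DREAM repressor complex, for rpl-12, and set-21, a SET-domain gene, for rpl-7A. In the last 2 cases both genes of the pair encode ribosomal proteins: rps-30 faced rpl-39, and rps-14 faced rpl-36.

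The neighbour was nearer to the summit for rpl-1 (308 bp against 316), rpl-20 (175 against 287) and rpl-36, whose own end was 428 bp away. The large-subunit gene was nearer for rpl-12 (18 against 375), rpl-15 (351 against 463), rpl-7A (72 against 182) and rpl-39 (246 against 253). Shared regions had a median signal of 189, and the 5 unshared ones, of rpl-3, rpl-6, rpl-7, rpl-14 and rpl-35, had 193. The signals of both kinds overlapped over most of their range. Which gene of a pair a region acts on, if any, was not tested.

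Other genes of the ribosome were counted by the same rule. Of 31 small-subunit genes, 12 had a kept region (38.7%, 95% Wilson interval 23.7 to 56.2) and 25 a ranked peak, an interval that overlaps that of the large subunit. Of 41 genes for the large subunit of the mitochondrial ribosome, mrpl-28 alone had a kept region (2.44%), and 15 had a ranked peak. Of 30 genes of ribosome assembly and the nucleolus, fib-1, nol-58 and pro-1 had one (10.0%), and 10 had a ranked peak. This list took in ebp-2, better known for binding microtubule ends, which had no kept region.

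**Figure D4:**
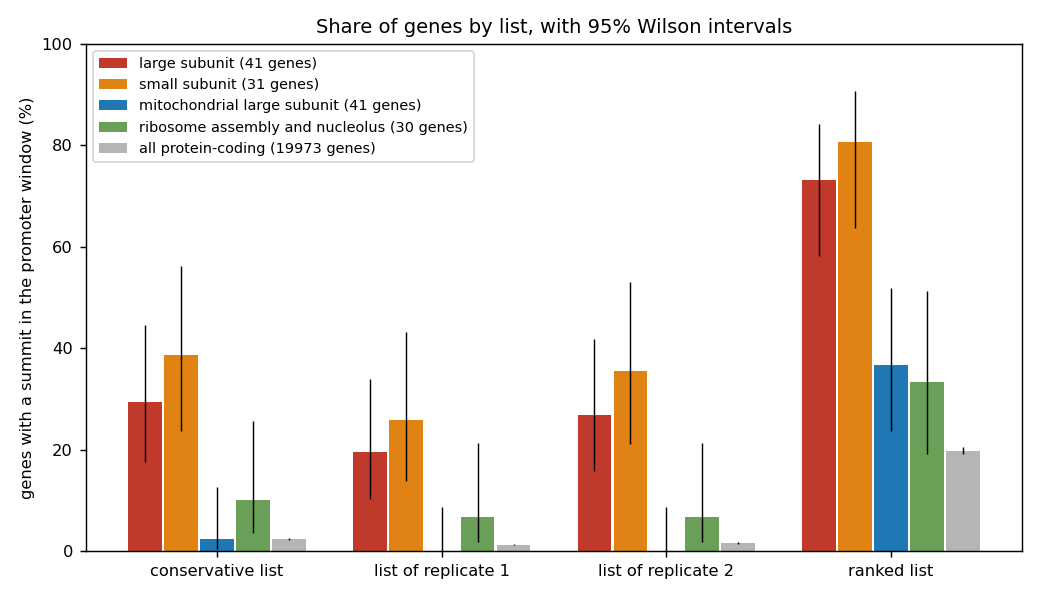
Share of genes in percent with a summit in the promoter window, for 4 classes of ribosome genes and all protein-coding genes in 4 peak lists, with 95% Wilson intervals that cover the number of genes only. Large- and small-subunit genes reach 29.3% and 38.7% in the conservative list, where all protein-coding genes reach 2.31%.

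Large-subunit genes with a dotted name, most of them paralogues such as rpl-11.1 and rpl-11.2, are not among the 41. Of 9 such genes, rpl-41.2 (267 bp upstream) and rpl-11.2 (416 bp upstream) had a kept region and 6 had a ranked peak.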

How the data were processed

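Per the deposited text records, the authors called peaks for either replicate and for the pooled reads, against a control, on ce11. Aligner and peak caller: not given in the sources used here. As deposited, the signal is the caller's own value for each peak, ranked only within a list, with replicate values set side by side. The deposited −log10 IDR gave each IDR, and the lowest value is a cap. Ensembl WBcel235 release 115, the same assembly as ce11, gave genes and 5′ ends. Overlapping records were merged, keeping the summit of the highest. The 3 thresholded alternatives, other IDR thresholds, windows and gene assignments were tried.

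The members and lists were chosen with earlier results of these data known. Named genes are all members with a kept region, the 5 highest without one, those with no ranked peak, and genes sharing a region. Roles in the subunit and the counterparts in bacteria come from general knowledge. Of 38 assembly names searched, 30 matched. Counting was tested on simulated data. No p-value was computed, because 1 group of 2 replicates allows none. Python 3.11.15, SciPy 1.17.1 and Matplotlib 3.10.9 were used.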

Additional observations from a re-analysis of the deposited data

How the results depend on the processing

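The count of 12 large-subunit genes was 8 to 11 in the list of a single replicate. It was 9 at IDR 0.001, without rpl-14, rpl-36 and rpl-39 (1.36% of all genes), and 15 at IDR 0.05, with rpl-5, rpl-21 and rpl-23 (3.09%). Assigned to the nearest 5′ end only it was 9 (1.73%). From 250 bp upstream to 50 bp downstream, 3 genes and 3 distinct regions remained, rpl-7A, rpl-12 and rpl-39 (1.43% of all genes). In that window 11 large-subunit genes had a ranked peak, 1 region was shared and the median position was -72 bp. The share of all genes with a ranked peak in it is not given here. From 1000 bp upstream to 200 bp downstream, rpl-43 was added (13 genes, 3.02%) and the median was -316 bp. Settings chosen after seeing the data gave 5 genes when regions of a second gene were left out (1.17% of all genes), and 14 with dotted names.

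The median position was -316 bp at IDR 0.001 and -302 to -295 bp in single replicates. The median percentile was 81.4 at IDR 0.001, 70.8 at IDR 0.05 and 82.6 to 87.7 in single replicates, where shared regions numbered 4 to 7 and mean GC was 51.3% to 53.3%. Words differed between whole promoters and summits: ACGCGC was at 0%, CGCG at 41.7% and GCGTGTT at 33.3% of summits. No result reversed. No paired analysis was possible because there is 1 group. Depth is unknown, so what it limits could not be measured.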
